A study of Nematostella vectensis with 10 samples.

Results

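The 247 genes described here were higher in *Nematostella vectensis* gastrulae injected with *Nvznf845* shRNA than in gastrulae injected with the control shRNA. They were chosen out of 24520 genes by a rule on these same libraries. The estimated counts were summed per gene and divided by a size factor for each library, which gave normalised counts. A gene entered the set if its mean normalised count after knockdown was at least 20, if each of the 5 knockdown libraries lay above each of the 5 control libraries, and if the mean over 5 replicate pairs of log2((knockdown + 0.5)/(control + 0.5)) was at least 0.585, a 1.5-fold rise. Published cnidocyte genes listed by the study were to be left out, but of the 38 listed genes with a gene number 0 met the rule. Because the rule used the contrast between knockdown and control, the rise of these genes is given as a description with no test.

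The study compared RNA from whole wildtype gastrulae at 28 hours post fertilization, raised at 24 °C. In the knockdown group, embryos were injected after fertilization with a single shRNA against *Nvznf845* (5 libraries). In the control group, embryos received a control shRNA, which the sample labels call a scramble RNA (5 libraries). Each library came from about 1000 embryos, and libraries with the same replicate number came from the same one of 4 batches, with pairs 4 and 5 in a single batch.

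Cnidocytes, which include the stinging cells of cnidarians, each make a capsule with an eversible tubule, the cnidocyst, in their secretory pathway. In *Nematostella* they arise from progenitor cells in the embryonic ectoderm. *Nvznf845* encodes a zinc finger transcription factor of this lineage, and *NvpaxA*, a Pax family transcription factor, acts downstream of it. A single shRNA against a single target cannot by itself separate effects of losing that target from effects of the shRNA on other transcripts. In RNA from whole embryos, more cells of a type and more RNA per cell cannot be told apart.

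*Nvznf845* had 257, 329, 179, 343 and 292 normalised counts in knockdown replicates 1 to 5, against 1357, 1456, 1602, 1581 and 1577 in control replicates 1 to 5. *NvpaxA* had 34.3 to 67.2 normalised counts in the knockdown libraries, against 2039 to 2875 in the control libraries. Both genes were low in every library labelled as a knockdown. Among the listed cnidocyte genes, which mark the cell type in which *Nvznf845* acts, 25 of 38 met the mirrored rule. That rule asks that every knockdown library lies below every control library. It also asks for a control mean of at least 20 and a mean log2 fall of at least 0.585. With the listed genes left out, 4.52% of all genes with a control mean of at least 20 met it. Total counts ranged from 20848941 to 35960095 in the knockdown libraries and from 18891111 to 49293261 in the control libraries. Pair 3 stood apart: the 10 most abundant genes took 67.4% of the counts in its knockdown library and 56.0% in its control library. Knockdown replicate 3 had a size factor of 0.496, against 0.844 to 1.51 in the other 9 libraries. Counts of the less abundant genes in that library therefore rest on fewer reads, and scaling by total counts or by TPM moved this pair more than any other.

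Of the 17147 genes with a mean of at least 20 normalised counts after knockdown, 464 (2.71%) had every knockdown library above every control library, and 247 (1.44%) also reached the limit on the mean ratio. In the other direction, 792 of the 17529 genes with a control mean of at least 20 met the mirrored rule (4.52%), with the listed cnidocyte genes left out as in the rule itself. Before the limit on the mean ratio, and with listed genes counted, 909 genes had every knockdown library below every control library (5.19%). The changes of the rising genes were small beside those of the falling ones. The median of the mean log2 ratio was 0.88 over the rising genes, a 1.84-fold rise, against -3.57 over the falling genes. It was 0.02 over all 17147 genes with a knockdown mean of at least 20, called genes of the same level from here on. That name stands for the shared minimum only: their median was 373 normalised counts after knockdown, against 183 over the rising genes. The quartiles of the rising genes were 0.76 and 1.14. Only 89 of the 247 rising genes reached a mean log2 ratio of 1 (36.0%), and 6 reached 2 (2.43%), whereas 578 of the 792 falling genes were at -2 or below (73.0%). The step between the groups was smaller still. The lowest knockdown library was at least 1.5 times the highest control library in 36 rising genes, at least 2 times in 11 and at least 3 times in 0.

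**Figure D1:**
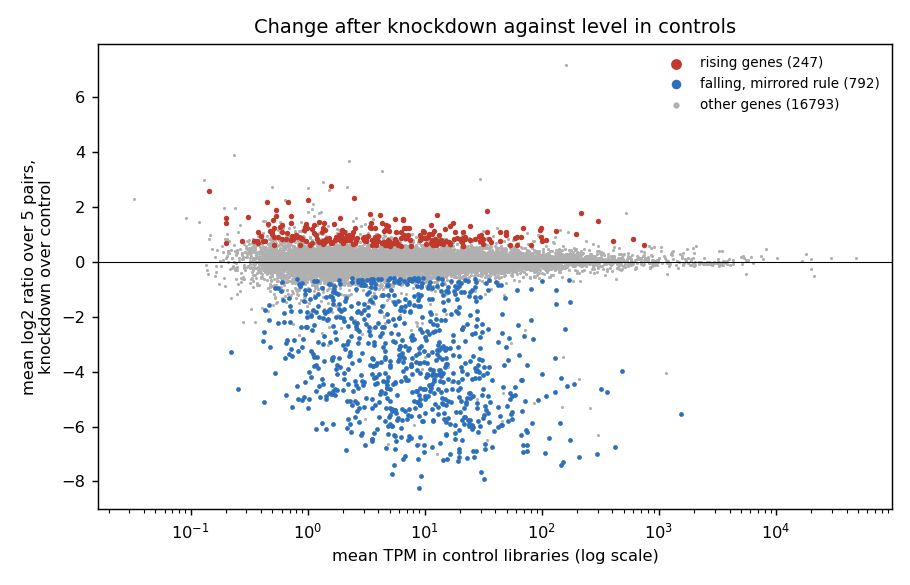
Mean log2 ratio over the 5 replicate pairs, knockdown over control (vertical axis), against the mean TPM of the control libraries on a log scale (horizontal axis), with 1 point per gene. The rising genes (red) lie in a thin band from 0.59 to 2.77, while the falling genes of the mirrored rule (blue) reach -8.24; grey genes as high as the red ones had overlapping groups or a knockdown mean under 20.

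The 8 genes with the largest rise are known only by their gene numbers, and no role is given for them here. NV2.10399 headed the set, with 264, 349, 160, 280 and 223 normalised counts in knockdown replicates 1 to 5, against 26.7, 36.5, 25.4, 61.9 and 38.5 in control replicates 1 to 5. Its mean log2 ratio was 2.77 ± 0.48 (SD over 5 pairs), and its step between the groups was 2.57-fold. NV2.7411 had 62.8, 81.3, 40.3, 70.3 and 59.8 normalised counts after knockdown, against 11.8, 14.8, 9.41, 9.45 and 6.07 in controls. Its mean log2 ratio of 2.57 ± 0.45 went with the widest step between the groups in the whole set, 2.66-fold. In both genes knockdown replicate 3 was the lowest of its group, and it still lay well above the controls.

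NV2.5358 had 48.6, 48.6, 46.3, 60.6 and 35.9 normalised counts in knockdown replicates 1 to 5, against 9.63, 4.56, 5.65, 14.6 and 16.2 in controls. Its pairs differed widely, with log2 ratios from 1.12 in pair 5 to 3.28 in pair 2, and its mean was 2.32 ± 0.84. NV2.24415 had 53.3, 59.2, 54.4, 56.7 and 33.9 normalised counts after knockdown, against 8.56, 9.12, 7.53, 17.2 and 11.5 in controls. Knockdown replicate 5 stood below the other 4 in this gene, and the mean log2 ratio was 2.24 ± 0.58. NV2.6871 had 59.9, 21.4, 42.9, 53.7 and 53.3 normalised counts after knockdown, against 10.3, 4.91, 15.2, 12.8 and 6.43 in controls (mean log2 ratio 2.19 ± 0.56). Replicate 2 was the lowest library of both groups in NV2.6871.

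NV2.6806 had 130, 143, 143, 103 and 121 normalised counts in knockdown replicates 1 to 5, against 32.1, 39.9, 33.9, 16.3 and 22.3 in controls. It had the narrowest spread of pairs among the 6 genes above a mean log2 ratio of 2, at 2.19 ± 0.32. NV2.13428 had 78.8, 52.9, 89.0, 61.1 and 51.6 normalised counts after knockdown, against 25.5, 15.9, 12.3, 29.7 and 9.65 in controls (mean log2 ratio 1.90 ± 0.69). Its control libraries differed among themselves more than its knockdown libraries did on a ratio scale. NV2.8437 was the only abundant gene among these 8. It had 1915, 2488, 1685, 2152 and 1627 normalised counts after knockdown, against 522, 606, 668, 481 and 453 in controls, a mean log2 ratio of 1.85 ± 0.31. In TPM, a unit that corrects for transcript length, it averaged 126 ± 54.6 in knockdown libraries and 34.2 ± 6.10 in control libraries (SD, n = 5 each).

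**Figure D2:**
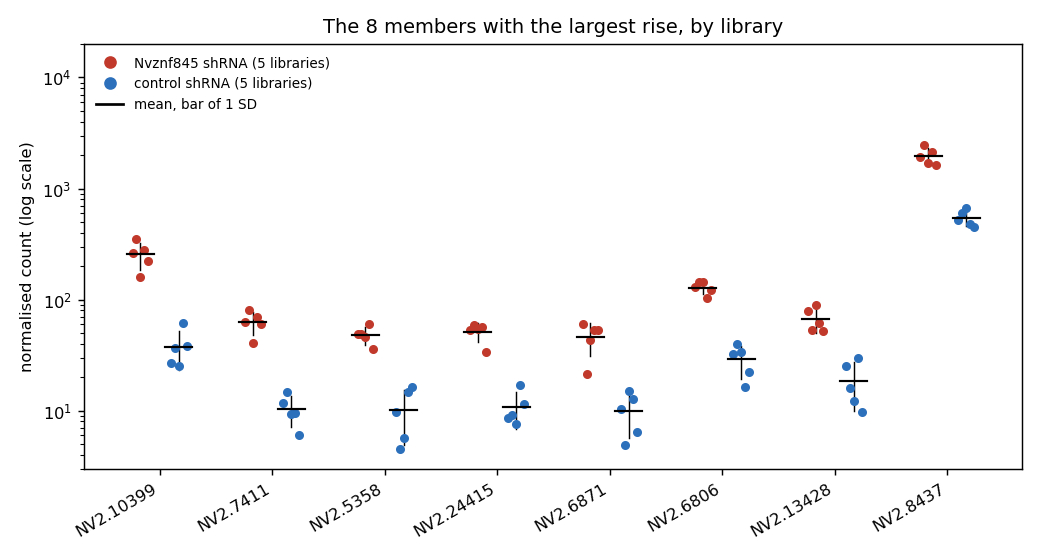
Normalised counts on a log scale (vertical axis) of the 8 genes with the largest rise (horizontal axis), with knockdown libraries in red left of control libraries in blue. Black lines give the mean and bars of 1 SD over 5 libraries; no red point falls to the level of a blue point of the same gene, and NV2.8437 is the only one of the 8 above 1000 normalised counts.

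Most rising genes were already expressed in control embryos, at low levels. All 247 had at least 1 estimated count in every control library, and 227 had at least 10 in every one. The lowest was NV2.2906, with 3 estimated counts in one control library. The median control level was 3.86 TPM over the rising genes, against 7.45 TPM over the falling genes and 10.6 TPM over all genes of the same level. After knockdown the medians were 7.71 TPM over the rising genes and 10.1 TPM over all genes of the same level, a smaller gap. The rule asks that controls lie below the knockdown libraries, so a lower control level is in part set by the rule. This holds for the next comparison too. Genes under 1 TPM in controls made up 19.8% of the set (49 genes), against 8.22% of all genes with a knockdown mean of at least 20. Their median log2 rise was 1.00, against 0.88 in the 120 genes from 1 to 10 TPM, 0.83 in the 69 genes from 10 to 100 TPM and 0.84 in the 9 genes above 100 TPM. The low genes also had the widest spread over pairs, with a median SD of 0.45 below 1 TPM, against 0.27 to 0.32 in the other 3 classes.

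A few abundant genes carried most of the added RNA. Summed over the 247 genes, normalised counts were 213970, 188587, 231487, 199009 and 187203 in knockdown replicates 1 to 5, against 106843, 90697, 118771, 124883 and 93310 in control replicates 1 to 5. As a share of all counts, the set took 0.788% ± 0.273 in knockdown libraries and 0.425% ± 0.132 in control libraries (SD, n = 5 each). Knockdown replicate 3 took 0.319%, against 0.368%, 0.421%, 0.256%, 0.614% and 0.467% in control replicates 1 to 5. The groups thus overlapped in this share, unlike in the summed normalised counts. Of the summed rise of 97150 normalised counts, 10 genes held 51.1% and 50 genes held 81.4%. The largest single portion, 12.9%, came from NV2.25216, which was singled out after its values were seen. NV2.25216 had 35999, 24114, 40500, 22639 and 27202 normalised counts after knockdown, against 16147, 13882, 19784, 21777 and 16122 in controls. Its ratio was small in pair 4, where the log2 ratio was 0.06, and its mean was 0.76 ± 0.43.

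By TPM after knockdown, NV2.5973 was the highest gene of the set, at 1081 ± 365 in knockdown libraries and 743 ± 280 in control libraries (SD, n = 5 each). It had 12810, 8681, 9908, 9874 and 8659 normalised counts after knockdown, against 6958, 5598, 4983, 7596 and 7362 in controls. The groups nearly met, with a step of 1.14-fold between them and a mean log2 ratio of 0.62 ± 0.32. NV2.5699 came next, at 965 ± 344 TPM in knockdown libraries and 599 ± 291 TPM in control libraries. Its normalised counts were 5929, 6385, 7296, 7516 and 6014 after knockdown, against 2804, 4219, 2555, 5309 and 4173 in controls. The mean log2 ratio of NV2.5699 was 0.84 ± 0.44, and its controls differed among themselves more than its knockdown libraries. NV2.22553 and NV2.22556, the other genes of the highest 4, belong to a run of consecutive gene numbers described further on.

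With size factors, the median rise was of similar size in the 5 pairs, all of which had a part in choosing the genes. The median log2 ratio of the 247 genes was 0.92, 0.93, 0.96, 0.78 and 0.94 in pairs 1 to 5, against 0.05, -0.0027, 0.12, 0.01 and 0.02 over all genes of the same level. Pair 4 gave the smallest ratio for 80 genes and pair 3 the largest for 68. With pair 3, whose libraries stood apart, left out of the mean, the median rise of the same 247 genes was 0.88. Pair 3 had a part in choosing these genes, so this does not show what the set owes to it. Without replicate 3 the rule itself chose 387 genes, 224 of them in the set. The direction and size in pair 3 did depend on the scaling. By total counts 212 of the 247 genes were above 0 in that pair, and by TPM 206 were. The median over all genes of the same level in that pair was then -0.52 and -0.44. The 247 genes had a median of 0.32 in pair 3 by total counts, against 0.78 to 1.01 in the other pairs. By TPM their median was 0.24 in pair 3, against 0.57 to 0.99 in the other pairs. With total counts in place of size factors the rule found 9 genes, 7 of them in the set, and with total counts and pair 3 left out it found 318, 190 of them in the set. Although every gene was higher in every pair, as the rule requires, the ratio of a gene was often under the limit of 0.585 in some pairs: this held for 49, 43, 26, 69 and 45 genes in pairs 1 to 5. In all, 102 of 247 genes were above that limit in all 5 pairs, and 23 had a log2 ratio of at least 1 in all 5. Pairs 4 and 5, from a single batch, differed by a median of 0.36 per gene in log2 ratio. The other 9 combinations of pairs differed by 0.22 to 0.37, so the shared batch did not go with closer ratios.

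**Figure D3:**
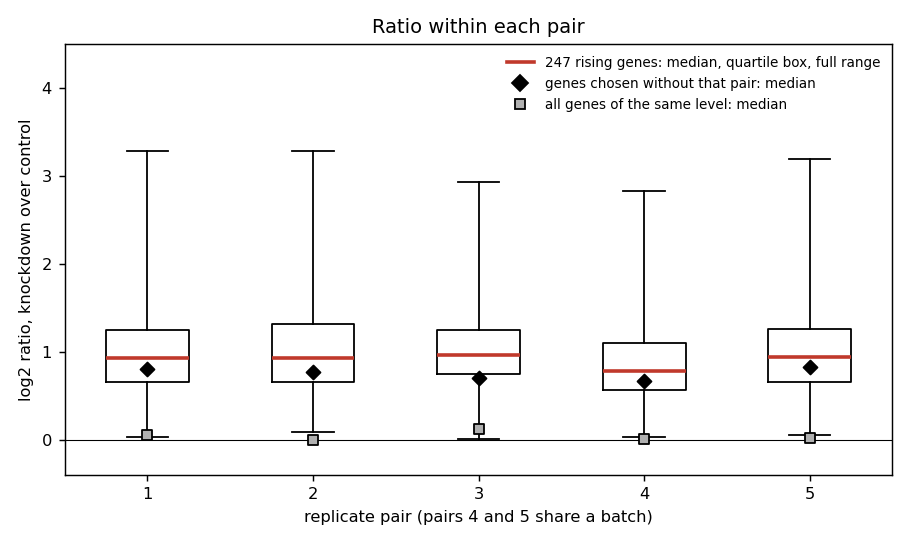
Log2 ratio of knockdown over control (vertical axis) in each replicate pair (horizontal axis) for the 247 rising genes, with red median lines, quartile boxes and whiskers over the full range. Black diamonds give the median, in that pair, of genes chosen from the other 4 pairs (0.67 to 0.82), and grey squares the median of all genes with a knockdown mean of at least 20 (-0.0027 to 0.12).

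No single library led the set throughout, but the libraries did not lead equally often. Knockdown replicate 3, whose less abundant genes rest on fewer reads, was the highest knockdown library for 95 of the 247 genes. That was the most of any knockdown library, and knockdown replicate 2 was the lowest for 83. Control replicate 4 was the highest control library for 85 genes and control replicate 2 the lowest for 73. The same counts were not made over all genes of the same level, so nothing is read from them. The SD of the log2 ratio over pairs had a median of 0.31 over the rising genes, against 0.33 over all genes of the same level. The rule's demand for no overlap disfavours genes with a wide spread, so these medians are not compared further.

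NV2.2381, NV2.19883 and NV2.5792 had the most even rise. NV2.2381 had 33.2, 34.5, 24.2, 26.4 and 21.9 normalised counts after knockdown, against 15.0, 13.7, 9.41, 10.3 and 8.77 in controls. Its log2 ratios lay between 1.12 and 1.32, around a mean of 1.27 ± 0.08. In this gene the knockdown and the control library of a replicate were broadly high or low together. It was picked for the narrowest spread of the set and had low counts. Whether its level follows the batches was not tested. NV2.19883 had 130, 92.8, 103, 122 and 113 normalised counts after knockdown, against 57.8, 35.3, 43.3, 49.9 and 44.2 in controls (mean log2 ratio 1.28 ± 0.08). NV2.5792 had 1185, 921, 1409, 1091 and 1026 normalised counts after knockdown, against 743, 574, 758, 658 and 620 in controls (mean log2 ratio 0.74 ± 0.09).

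The widest spreads belonged to NV2.15767, NV2.6761 and NV2.2549. NV2.15767 had 25.8, 19.5, 47.9, 30.5 and 40.4 normalised counts after knockdown, against 17.7, 16.2, 11.4, 11.5 and 6.05 in controls. Its log2 ratio was 0.26 in pair 2 and 2.64 in pair 5. NV2.6761 had 87.7, 76.9, 76.6, 79.1 and 104 normalised counts after knockdown, against 26.7, 21.7, 76.2, 76.5 and 64.8 in controls. Here the knockdown libraries were alike and the controls fell into low values in replicates 1 and 2 and high ones in replicates 3 to 5, of which replicates 3 and 4 all but reached the lowest knockdown library. NV2.2549 had 35.5, 40.7, 28.2, 63.5 and 38.5 normalised counts after knockdown, against 26.8, 25.1, 11.3, 10.3 and 19.6 in controls. In NV2.2549 the log2 ratio was 0.40 in pair 1 and 2.57 in pair 4.

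The rule was also applied to 4 pairs at a time. The genes so chosen were read in the pair left out, which had no part in their choice. The rule then chose 302, 373, 387, 315 and 303 genes when pair 1, 2, 3, 4 or 5 was left out. In the left-out pair, 282, 339, 307, 301 and 294 of them were higher in the knockdown library than in its control. These are 93.4%, 90.9%, 79.3%, 95.6% and 97.0%, beside 55.8%, 49.5%, 56.7%, 50.7% and 54.0% of all genes of the same level. The median log2 ratio in the left-out pair was 0.81, 0.77, 0.70, 0.67 and 0.82, against 0.05, -0.0051, 0.11, 0.0068 and 0.02 over all genes of the same level. Genes chosen from 4 pairs were thus mostly higher after knockdown in the pair left out, and their share was smallest in pair 3. They were not the same genes as the set described here. Of the genes chosen without pair 1, 2, 3, 4 or 5, 236, 242, 224, 241 and 243 were in that set. The set itself was chosen with all 5 pairs, so its own rise was not tested in this way. Pairs 4 and 5 share a batch, and the size factors came from all 10 libraries, so the left-out pairs were not wholly separate from the choice.

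When all genes were fitted with edgeR's quasi-likelihood test, 229 of the 19001 genes tested were called higher after knockdown (1.21%), at a Benjamini-Hochberg adjusted p of at most 0.05 and a fold change of at least 1.5. Of these, 201 were among the 247 rising genes and 28 were not. Nothing is read from this count, since the rule had used that contrast. Without replicates 1 to 5 in turn, 117, 128, 158, 122 and 111 of the rising genes were called, and 126, 158, 235, 139 and 118 genes in all. When edgeR used library size alone, 17 of the rising genes were called, and 21 genes in all. Of the 46 rising genes not called, 45 missed the limit on the adjusted p and 3 the limit on the fold change. Of the 28 called genes outside the set, 26 had overlapping groups. Among the genes not called was NV2.17838, with 41.5, 44.2, 42.3, 76.2 and 43.2 normalised counts after knockdown, against 40.7, 34.2, 17.9, 38.7 and 16.9 in controls. In NV2.17838 knockdown replicate 4 lay far above the rest, and the log2 ratio in pair 1 was 0.03.

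The limits of the rule cut through a continuous range. Just inside the limit on the mean ratio were NV2.17970 and NV2.10713, both at 0.59, and just outside it were NV2.16241 and NV2.10698, both at 0.58. NV2.17970 had 318 to 441 normalised counts after knockdown, against 195 to 309 in controls. NV2.10698, which was left out, had 49.5 to 68.4 normalised counts after knockdown, against 34.3 to 43.9 in controls. Its 5 log2 ratios lay between 0.52 and 0.64, closer together than those of any of the 247 members. In all, 217 genes met every other condition with a mean ratio under the limit. At the minimum level, NV2.17519 and NV2.10381 were just inside, with means of 21.0 and 21.7 normalised counts after knockdown. NV2.19698 and NV2.6636 were just outside, with 19.5 and 19.1, and 41 genes met every other condition with a mean under 20.

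Gene numbers were the only indication of position in the files. Whether consecutive numbers are neighbours on a chromosome was not checked here. Of the 247 rising genes, 20 had a number next to that of another rising gene (8.10%), against 433 of the 24273 other genes (1.78%). Of the 792 falling genes, 291 were next to another falling gene (36.7%), against 1092 of the 23728 other genes (4.60%). The 20 rising genes formed 9 runs, 8 of them of 2 genes and 1 of 4.

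The run of 4, NV2.22553 to NV2.22556, held 16.1% of the summed rise. NV2.22553 had 15638, 14200, 15779, 13814 and 12135 normalised counts in knockdown replicates 1 to 5, against 6522, 3794, 7120, 5400 and 3585 in controls (mean log2 ratio 1.49 ± 0.33). NV2.22554 had 973, 521, 912, 737 and 570 normalised counts after knockdown, against 335, 190, 381, 254 and 136 in controls (mean log2 ratio 1.57 ± 0.30). Levels of these 2 genes differed widely, since NV2.22553 averaged 830 ± 258 TPM in knockdown libraries and NV2.22554 averaged 18.6 ± 5.47 TPM. NV2.22555 had 315, 288, 343, 467 and 410 normalised counts after knockdown, against 138, 83.9, 140, 135 and 75.2 in controls (mean log2 ratio 1.70 ± 0.50). NV2.22556 had 9941, 7322, 8409, 8556 and 7646 normalised counts after knockdown, against 2986, 1837, 3226, 2800 and 1713 in controls (mean log2 ratio 1.78 ± 0.31). In all 4 genes control replicates 2 and 5 were the lowest of the controls.

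The proportions of the counts within the run varied between libraries. NV2.22554 had 5.14% ± 0.997 of the normalised count of NV2.22553 in knockdown libraries and 4.80% ± 0.614 in control libraries (SD, n = 5 each). NV2.22556 had 58.7% ± 5.77 of it in knockdown libraries and 47.8% ± 2.60 in control libraries. NV2.22555 had 2.60% ± 0.721 of it in knockdown libraries and 2.18% ± 0.196 in control libraries. In knockdown replicates 4 and 5 the proportion of NV2.22555 was 3.38% in each, against 2.01 to 2.17% in knockdown replicates 1 to 3. None of the 4 genes had whole-number sums in all libraries, and Salmon divides reads that fit several transcripts, so reads may be shared among them. Whether the 4 share sequence was not tested. The flanking gene NV2.22552 had a mean of 421 ± 34.8 normalised counts after knockdown and 415 ± 75.0 in controls, a mean log2 ratio of 0.04. NV2.22558, 2 numbers beyond the other end, had 747 ± 105 after knockdown and 767 ± 111 in controls, a mean log2 ratio of -0.04. Further on, NV2.22559 had 26.4 ± 7.88 after knockdown and 16.1 ± 4.45 in controls, a mean log2 ratio of 0.67. Its ratios ran from 0.37 in pair 1 to 1.04 in pair 3, but it did not meet the rule.

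**Figure D4:**
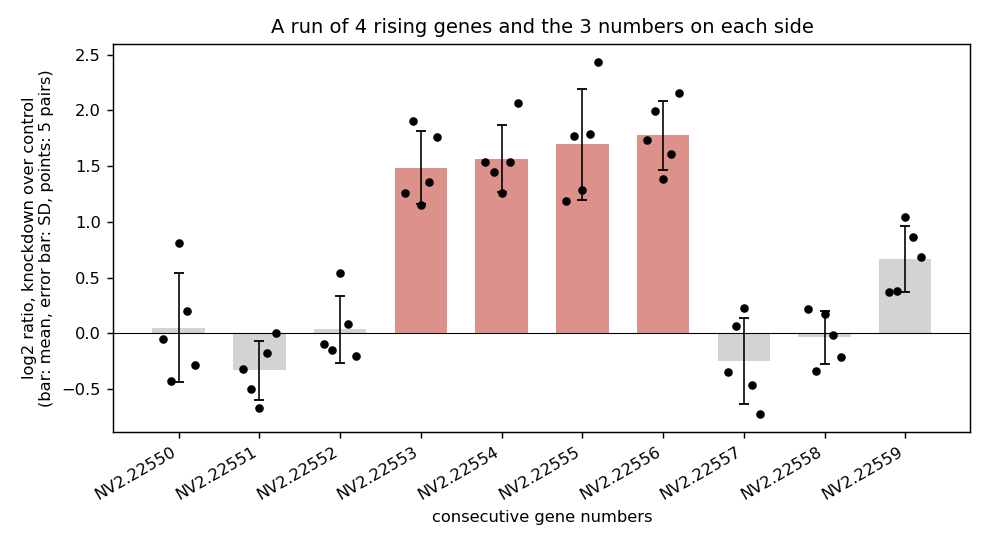
Log2 ratio of knockdown over control (vertical axis) for 10 consecutive gene numbers (horizontal axis), with bars for the mean, error bars of 1 SD and points for the 5 replicate pairs. The 4 red genes of the run have means from 1.49 to 1.78, while 5 grey genes have means from -0.33 to 0.05. The remaining grey gene, NV2.22559, was higher, at 0.67, but did not meet the rule.

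Both abundant genes of the run have several annotated transcripts. The main transcript of NV2.22553 held 83.8% ± 5.33 of the gene's counts in knockdown libraries and 80.7% ± 3.25 in control libraries (SD, n = 5 each). In NV2.22556 the leading transcript was not the same in the groups. The transcript that led after knockdown held 35.2% ± 2.95 in knockdown libraries and 30.7% ± 2.84 in control libraries, and the one that led in controls held 30.8% ± 5.63 in knockdown libraries and 37.9% ± 1.95 in control libraries.

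The other runs were pairs of genes. NV2.21500 had 3478, 3124, 2943, 2248 and 2272 normalised counts after knockdown, against 1760, 1220, 1326, 1800 and 901 in controls (mean log2 ratio 1.03 ± 0.42). NV2.21501 had 797, 534, 983, 609 and 625 normalised counts after knockdown, against 329, 177, 257, 411 and 201 in controls (mean log2 ratio 1.40 ± 0.52). In both, pair 4 gave the smallest ratio and control replicate 4 was the highest control. NV2.21705 had 8691, 10239, 13308, 11448 and 10403 normalised counts after knockdown, against 4580, 3763, 6519, 6299 and 3813 in controls (mean log2 ratio 1.14 ± 0.28). NV2.21706 had 879, 954, 1150, 1001 and 854 normalised counts after knockdown, against 468, 397, 571, 546 and 349 in controls (mean log2 ratio 1.07 ± 0.20). Both genes ranked the 5 pairs in the same order, from pair 5 at the top through pairs 2, 3 and 1 to pair 4. NV2.15768, next to NV2.15767, had 39.0, 29.0, 35.4, 36.4 and 27.8 normalised counts after knockdown, against 17.2, 15.2, 18.5, 24.8 and 16.4 in controls. Its mean log2 ratio of 0.86 ± 0.23 had a far narrower spread than the 1.36 ± 1.00 of its neighbour.

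Of the 247 rising genes, 14 were next to a falling gene (5.67%), beside 4.60% of the genes that were not falling themselves. Listed cnidocyte genes are not counted among the falling genes here. NV2.11972, a further rising gene, is next to one of these, *TX60B-like3* (NV2.11971), which had 14.6 ± 3.80 normalised counts after knockdown and 226 ± 70.2 in controls (SD, n = 5 each). A rising gene next to a named gene was singled out after its values were seen. NV2.25992 had 122, 152, 78.6, 95.9 and 90.7 normalised counts after knockdown, against 35.3, 33.1, 25.4, 34.4 and 27.7 in controls (mean log2 ratio 1.75 ± 0.27). It follows *NvfoxE-like*, which encodes a forkhead transcription factor, by gene number. *NvfoxE-like* (NV2.25991) had 705, 824, 679, 755 and 562 normalised counts after knockdown, against 1080, 1297, 817, 985 and 970 in controls. Its log2 ratio was below 0 in all 5 pairs, with a mean of -0.54, but it did not meet the mirrored rule: the mean missed the limit and the groups overlapped, with knockdown replicate 2 above control replicate 3.

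Length was a property the rule did not use, and the median transcript of the rising genes was shorter than that of genes of the same level. By the longest annotated transcript of each gene, the median length was 1996 bases over the rising genes, against 2416 over the falling genes, 2606 over all genes with a knockdown mean of at least 20, and 2202 over all 24520 genes. Of the rising genes, 33 were under 1000 bases (13.4%), against 6.02% of genes of the same level, and 8 were over 5000 bases (3.24%), against 11.0%. The minimum of 20 counts favours long transcripts, and rising genes also had low TPM, so length and level are not separate comparisons. The 33 genes under 1000 bases had a median log2 rise of 1.08, while those in the 4 longer classes had medians from 0.84 to 0.90.

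**Figure D5:**
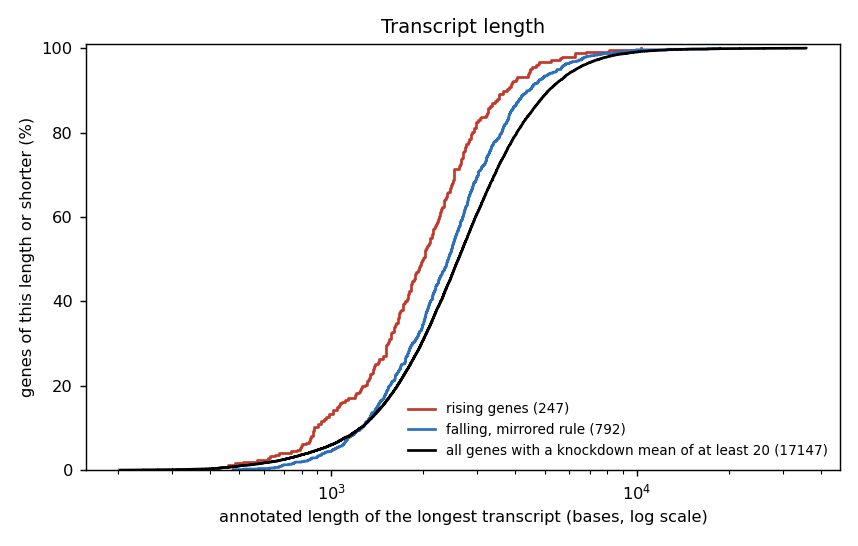
Cumulative percent of genes (vertical axis) by annotated length of the longest transcript in bases on a log scale (horizontal axis). The curve of the 247 rising genes (red) lies over most of its range left of the curves of the falling genes (blue) and of all genes with a knockdown mean of at least 20 (black), with medians of 1996, 2416 and 2606 bases.

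The longest of the set, NV2.9292 (10283 bases), had 85.6, 87.2, 114, 85.7 and 93.6 normalised counts after knockdown, against 27.9, 36.6, 54.6, 30.5 and 28.7 in controls (mean log2 ratio 1.41 ± 0.26). NV2.23667 (8077 bases) had 111, 96.4, 161, 87.9 and 87.8 normalised counts after knockdown, against 79.2, 68.4, 75.9, 58.5 and 67.6 in controls (mean log2 ratio 0.60 ± 0.28). In both of these long genes, knockdown replicate 3 was the highest library. The shortest, NV2.156 (426 bases), had 184, 71.3, 90.7, 164 and 86.0 normalised counts after knockdown, against 65.3, 18.3, 62.1, 57.6 and 40.5 in controls (mean log2 ratio 1.31 ± 0.53). NV2.16825 (432 bases) had 149, 196, 135, 236 and 176 normalised counts after knockdown, against 86.7, 71.8, 58.3, 98.0 and 46.0 in controls (mean log2 ratio 1.32 ± 0.41). The short genes reached higher TPM than the long ones, with 41.6 ± 22.4 for NV2.156 in knockdown libraries, against 0.526 ± 0.169 for NV2.9292 in the same libraries.

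Most rising genes had a single annotated transcript, so the rise could not be divided among isoforms. Among the rising genes, 48 had at least 2 transcripts (19.4%), against 27.3% of genes of the same level. In 32 of the 48, no transcript's share of the gene differed by 10 percentage points or more between the group means. The median of the largest difference was 5.13 points, and 1 gene exceeded 20. That gene was NV2.1035, with a mean of 36.4 ± 8.05 normalised counts after knockdown and 21.3 ± 3.56 in controls. One of its 2 transcripts held 0, 100, 100, 100 and 0% of the counts in knockdown replicates 1 to 5, against 0, 38.7, 80.1, 0 and 0% in control replicates 1 to 5. The share switched between extremes within both groups. In NV2.12597, a transcript held 36.9% ± 23.7 of the counts in knockdown libraries and 16.9% ± 12.2 in control libraries (SD, n = 5 each), and in NV2.1941 a transcript held 23.0% ± 21.9 in knockdown libraries and 3.25% ± 4.45 in control libraries. In each of these 3 genes the groups overlapped. In 2 of the 48 genes the share of the transcript that differed most did not overlap between the groups, and both are named after their values were seen. The same count was not made over all genes with at least 2 transcripts, so nothing is read from it. In NV2.6060 it was 77.3 to 87.9% in knockdown libraries, against 67.1 to 73.2% in control libraries, and in NV2.2124 it was 39.36 to 45.0% in knockdown libraries, against 19.3 to 39.35% in control libraries, so that the groups of NV2.2124 all but met. In 25 rising genes the sum over all transcripts was whole, with a tolerance of 0.01, in every library (10.1%), against 3.43% of genes of the same level. Over all genes, with no minimum level, it was 20.3%. The rising genes had lower counts than genes of the same level, so whole sums and level are not separate comparisons. Sums that are not whole arise where reads are divided among transcripts of several genes, so the other rising genes are less certain in that respect.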

How the data were processed

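Whole-embryo polyA RNA was sequenced as paired-end reads by the authors' provider. The authors quantified transcripts with Salmon and analysed them with DESeq2; their versions were not stated in the labels or methods. The deposited files hold estimated counts and the authors' TPM values per transcript, with lengths. Salmon divides reads that fit several transcripts. No 2 libraries were duplicates.

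The 35819 transcripts were summed to 24520 genes by characters 5 to 10 of the transcript name. Size factors were medians of ratios over the 20303 genes above 0 in all 10 libraries. TPM was used only for levels and as an alternative scaling. The members and lists were chosen with earlier results of these data known. All genes were fitted with edgeR 4.0.16 (R 4.3.3; sums rounded to whole numbers, TMM, filterByExpr with a minimum of 10 counts, robust quasi-likelihood test, Benjamini-Hochberg adjustment). DESeq2 1.42.0 and limma 3.58.1 were alternatives. Scripts were tested on simulated data. Groups and replicate numbers came from the labels. Labels give no separate cultures, so p-values measure the spread between these libraries.

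The numbers pair the libraries, since by the labels a knockdown and a control library with one number share a batch, and the study's methods state pairing. Correlations of deviations within a pair were 0.53, -0.05, 0.20, 0.18 and 0.65 in pairs 1 to 5.

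Genes were named by rule: the 8 largest rises, the 4 highest TPM, the 3 widest and 3 narrowest pair spreads, the 4 longest runs, the 2 nearest each limit on either side, the 2 longest and 2 shortest, the 3 largest transcript share differences and the 2 highest adjusted p by edgeR. Exceptions are stated. None of the 247 gene numbers was in the reference table used, so no names, coordinates or sequences are given.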

Additional observations from a re-analysis of the deposited data

Results flagged for a closer look

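In 5 of 82 groups of 5 libraries tested, over the named genes and both conditions, 1 library stood far from the other 4 by Dixon's test; chance flags about 1 in 20 groups. NV2.24415 had 33.9 normalised counts in knockdown replicate 5, against 53.3 to 59.2 in the other knockdown libraries. NV2.9292 had 114 in knockdown replicate 3, against 85.6 to 93.6. NV2.17838 had 76.2 in knockdown replicate 4, against 41.5 to 44.2. Among controls, NV2.12597 had 13.8 in replicate 4, against 5.65 to 7.49 in the other control libraries. NV2.6636, just outside the set, had 14.6 in control replicate 4, against 9.45 to 10.4.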

How the results depend on the processing

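The set depended most on the scaling. With library size alone the rule found 9 genes, 7 of them members, and the median rise was 0.79. In that setting edgeR called 17 members, and 21 genes in all. With TPM the median rise was 0.70. On log2(TPM + 1) limma called 17 members, and 26 genes in all. On log2(TPM + 0.1) it called 16 members, and 30 genes in all. In pair 3 the median of all genes of the same level was then -0.52 by total counts and -0.44 by TPM, and 212 and 206 members stayed above 0; in pair 4 by TPM, 241 did. Some settings were chosen after seeing the data. Among these, total counts less the 10 most abundant genes gave 214 genes (197 members), and total counts with pair 3 left out gave 318 genes (190 members). Also among these, with pair 3 left out, edgeR with library size alone called 102 members, and 136 genes in all. Limma on log2(TPM + 1) then called 96 members, and 133 genes in all. TMM gave 259 genes, 243 of them members. Other rules gave 89 genes at a mean log2 ratio of at least 1 and 477 when a rise in all 5 pairs replaced non-overlap. Leaving out replicates or libraries gave 266 to 387 genes, the most without replicate 3 (387) and replicate 2 (373). In these settings edgeR called 111 to 181 members. The fewest were without replicate 5, with 118 genes called in all, and the most without knockdown replicate 2, with 236 in all. Leaving whole replicates out of the mean gave the same members a median rise of 0.88 to 0.93. Pairs 4 and 5 alone gave 700 genes (209 members) and 66 members called, with 113 genes called in all. With the replicate block, edgeR called 203 members, and 314 genes in all, against 229 without it. DESeq2 called 227 members, and 321 genes in all. Numbers at most 2 or 5 apart placed 32 or 44 members near another. The median length of members minus that of all genes was -206 bases, and minus that of genes of the same level -610. The causes were not tested.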
